A study of Mus musculus with 9 samples.

Results

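The killer lectin-like receptor (Klr) genes were examined in an H3K27ac ChIP-seq series of naive CD8+ T cells with and without the transcription factors Tcf1 and Lef1. Members were the protein-coding genes whose symbol starts with Klr, 27 of the 22380 protein-coding gene entries of the mm9 annotation. Of these, 25 lie in the natural killer (NK) gene complex, a stretch of 2.64 Mb on chromosome 6 (chr6:128559245-131197380, mm9), and Klrg1 and Klrg2 lie elsewhere on the same chromosome. Klraq1, which shares only the letters of the symbol and sits on another chromosome, was left out. The regions assigned to a gene were all those that touched its body or the 50 kb upstream of its most upstream start, and 156 of 76633 regions qualified, each counted once. Of these, 55 fell in the windows of more than 1 Klr gene and 17 in the windows of more than 1 subfamily.

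H3K27ac, a histone mark of active promoters and enhancers, was measured in spleen cells sorted as GFP+ TCRbeta+ CD62Lhi CD44lo-med CD8+. WT cells came from hCD2-Cre+ Rosa26GFP Tcf7+/+ Lef1+/+ mice (4 samples) and dKO cells from hCD2-Cre+ Rosa26GFP Tcf7 fl/fl Lef1 fl/fl mice (3 samples), so both genotypes carried the Cre transgene and the GFP reporter that marks cells in which Cre was active. The hCD2-Cre transgene acts mainly in mature peripheral T cells, and the mice were 6 to 12 weeks old on the C57BL/6 background. Each genotype also had 1 input sample, which carried no values of its own. The authors pooled the replicates before calling enriched stretches, termed islands, and the island lists give 1 value per genotype. There is therefore no replicate spread, no test was possible, and every interval below is a 95% Wilson interval that covers counting error only.

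For WT cells 65563 islands were listed, with 82668007 read counts over 392.7 Mb, a mean of 210.5 counts per kb. For dKO cells 82213 were listed, with 57665047 counts over 429.3 Mb, a mean of 134.3 counts per kb. Ratios are log2 of dKO to WT counts after division by the list total, and ratios per covered kb were divided by the list's mean counts per kb. Islands covered the promoters of 8 of 8 CD8 T cell markers in both genotypes, but also those of 5 of 6 B cell markers in WT and 6 of 6 in dKO, and of 6 of 7 and 7 of 7 myeloid markers, so an island over a marker promoter was a weak check of cell identity. Among NK cell markers outside the Klr family, 8 of 9 promoters carried an island in both genotypes. The exception, Ncr1, an activating NK receptor, had no region in its window. The windows of the targeted genes had log2 ratios of 0.15 (0.14 to 0.17) at Tcf7 and -0.30 (-0.31 to -0.28) at Lef1, which does not show whether the floxed exons were deleted.

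Klr genes encode lectin-like receptors that NK cells and some T cells use to sense MHC class I molecules and related ligands. Klra (Ly49) receptors and the dimers of Klrd1 (CD94) with Klrc1 or Klrc2 (NKG2A, NKG2C) recognise classical and non-classical MHC class I, while Klrk1 (NKG2D) recognises stress-induced ligands and Klrb (NKR-P1) receptors recognise Clec2 proteins encoded between them. Inhibitory members recruit phosphatases such as Ptpn6, and activating members signal through the adaptors Tyrobp, Hcst or Fcer1g. Some of these receptors appear on activated or memory CD8+ T cells, and the gene families hold near-identical copies.

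The promoter sequences shown first are those of the genes with an island within 1 kb of a start in 1 genotype only, Klrb1, Klra17 and Klrg2. Klre1, which had the highest count ratio of any Klr promoter region, was added after its value was seen. Each runs from 250 bases upstream to the base before the most upstream annotated start, 5′ to 3′ on the gene's strand, and was read from the NCBIM37 (mm9) genome. Capitals mark the TCF/LEF core CTTTGA or the RUNX core TGTGGT on either strand. The motifs were searched as exact letters, together with the T-box core GGTGTGA.
Klre1, plus strand, chr6:129527661-129527910: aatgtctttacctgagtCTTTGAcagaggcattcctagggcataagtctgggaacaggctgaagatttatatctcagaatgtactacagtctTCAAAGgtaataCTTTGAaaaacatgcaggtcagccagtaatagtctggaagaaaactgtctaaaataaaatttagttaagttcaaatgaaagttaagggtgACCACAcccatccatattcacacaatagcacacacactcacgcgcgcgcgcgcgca
Klrb1, minus strand, chr6:128673065-128673314: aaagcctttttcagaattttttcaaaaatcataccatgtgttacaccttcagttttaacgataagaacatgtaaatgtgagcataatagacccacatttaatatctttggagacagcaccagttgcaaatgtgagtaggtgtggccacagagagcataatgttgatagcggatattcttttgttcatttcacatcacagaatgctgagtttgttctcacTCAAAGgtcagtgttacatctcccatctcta
Klra17, minus strand, chr6:129826691-129826940: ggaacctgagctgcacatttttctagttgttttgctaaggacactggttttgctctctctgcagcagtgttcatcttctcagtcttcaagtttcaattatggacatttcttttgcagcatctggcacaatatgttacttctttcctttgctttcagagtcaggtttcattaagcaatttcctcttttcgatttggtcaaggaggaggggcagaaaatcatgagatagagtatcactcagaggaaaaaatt
Klrg2, minus strand, chr6:38587240-38587489: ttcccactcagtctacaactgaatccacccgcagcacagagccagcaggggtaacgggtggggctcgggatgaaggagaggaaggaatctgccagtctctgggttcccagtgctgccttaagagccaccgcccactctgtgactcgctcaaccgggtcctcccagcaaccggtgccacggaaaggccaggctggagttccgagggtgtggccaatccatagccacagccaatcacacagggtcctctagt
The Klre1 promoter held 3 TCF/LEF cores and 1 RUNX core, and the dKO island covered all 250 bases while the WT island covered 0. The Klrb1 promoter held 1 TCF/LEF core on the opposite strand, and neither island list covered these 250 bases. The Klra17 and Klrg2 promoters held none of the 3 motifs, with 250 bases covered in dKO only for Klra17 and in WT only for Klrg2. Over all 27 Klr promoters of this length, 7 (25.9%) held a TCF/LEF core, against 13.4% of 22375 protein-coding promoters, and 9 (33.3%) held a RUNX core, against 12.8%. The T-box core was found in 0 Klr promoters and in 3.19% of all promoters. These shares were not matched for base composition, and promoters of near-identical gene copies are not independent. Within the islands themselves the TCF/LEF core was about as dense as elsewhere, with a median of 0.667 matches per kb over the Klr regions and 0.714 over all regions. For the RUNX core the medians were 0.728 and 0.833.

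Fewer Klr promoters than average carried H3K27ac in either genotype. An island lay within 1 kb of an annotated start for 12 Klr genes in WT (44.4%) and 13 in dKO (48.1%), against 62.9% and 63.3% of all protein-coding genes. The same 11 genes were marked in both genotypes: Klrb1c, Klrb1b, Klrb1f, Klrb1-ps1, Klre1, Klrd1, Klrc1, Klri1, Klri2, Klra5 and Klra1. Klrb1 and Klra17 were marked in dKO alone, 7.41% of the family against 2.68% of all genes. Klrg2 was marked in WT alone, 3.70% against 2.33%. The other 13 genes, Klrg1, Klrb1a, Klrk1, Klrc2, Klrc3 and 8 of the 11 Klra genes, had no promoter island in either list. For Klrc2 and Klrc3 the absence has a limit, because only 22.8% and 22.9% of the 50-base sequences around their starts are unique in the genome and the authors kept uniquely mapped reads. The same share was 65.8% at Klra8, and at Klrk1 and Klrg1 every such sequence was unique.

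Across the family, islands found in dKO alone outnumbered those found in WT alone. Of the 156 Klr regions, 95 (60.9%) had islands in both lists, 55 (35.3%) in dKO only and 6 (3.85%) in WT only. Over all regions, 28.1% had an island in dKO only and 12.8% in WT only. Klr regions were smaller than most, with a median of 366.5 counts in both lists together against 549 over all regions, and 83.3% of them had under 1000 counts against 65.2% of all. Among regions under 1000 counts, a range chosen after seeing the data, the dKO-only share of Klr regions was 42.3% and that of all regions 42.8%, so this share was near the background of small regions. The WT-only share was 4.62% of Klr regions and 19.3% of all regions in that range. The balance turned with a minimum count: keeping islands of at least 200 counts left 19 WT-only and 8 dKO-only Klr regions, while a minimum scaled by the list totals (200 counts in WT, 139.5 in dKO) left 7 and 28. Over all regions the balance turned too at 200 counts, with 23.7% in WT only and 15.7% in dKO only. With the scaled minimum, 6.48% of Klr regions were WT-only and 25.9% dKO-only, against 14.2% and 25.01% of all regions. In these bulk samples, more H3K27ac in a few cells and a little more in many cells cannot be told apart.

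**Figure D1:**
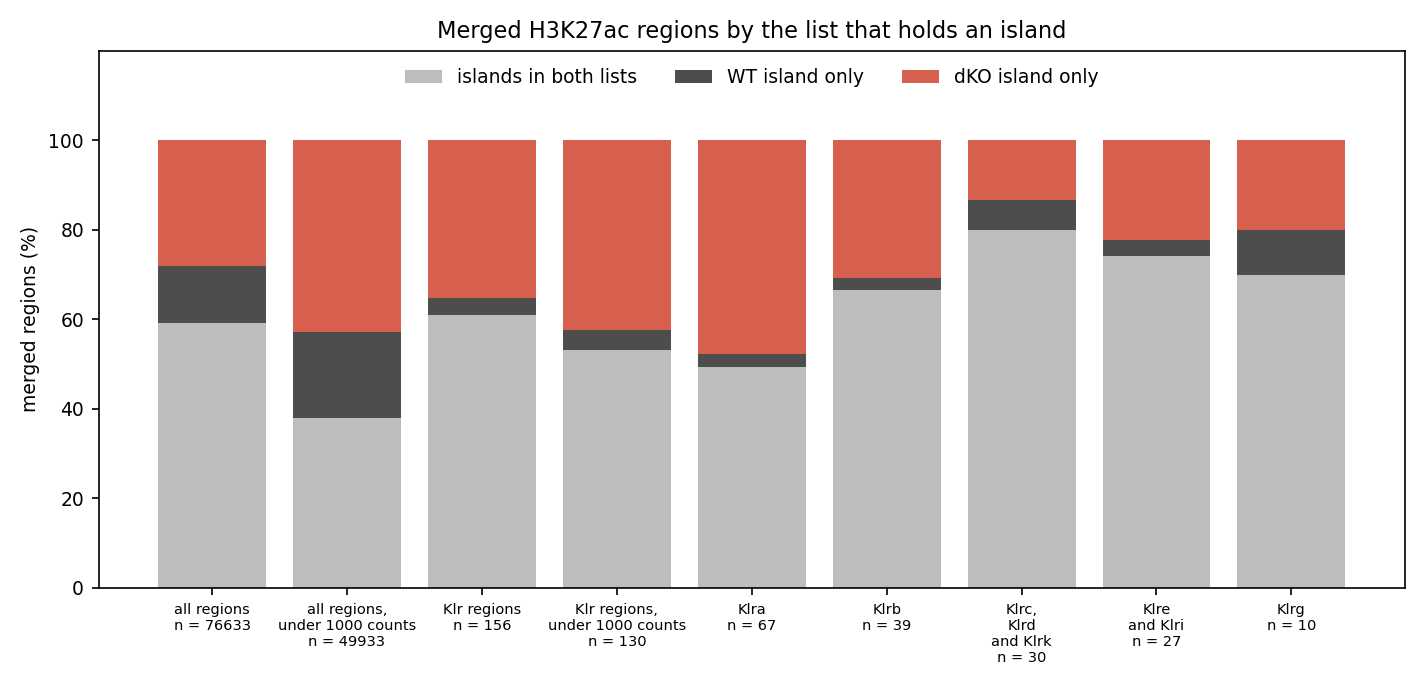
Stacked bars give the percentage of merged regions with an island in both lists, in WT only or in dKO only, for all regions, for Klr regions and for each Klr subfamily, with the number of regions under each bar. The dKO-only share was 47.8% in Klra windows and 13.3% in the windows of Klrc, Klrd and Klrk, and regions shared by subfamilies appear in each of their bars.

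The 55 dKO-only regions were short and shallow. They held 48 to 337 counts, with a median of 121 counts over 1.2 kb, and their median depth was 0.729 of the dKO list mean, against 0.651 for all dKO-only regions. Of the 55, 18 lay within 1 kb of a WT island and 35 within 5 kb. These distances were not computed for all dKO-only regions, so it is not known whether they are usual. The 3 with the most counts were chr6:129894801-129898400 upstream of Klra5 (337 counts), chr6:130267601-130270600 in an intron of Klra9 (259 counts) and chr6:130348001-130350800 upstream of Klra1 (252 counts). All of the top 3 thus lay in the Klra cluster. The 3 WT-only regions with the most counts were chr6:122282401-122285200 at the promoter of Phc1 within the Klrg1 window (374 counts), chr6:129647601-129649200 over an exon of Klri1 (222 counts) and chr6:128809201-128810200 upstream of Klrb1b (163 counts).

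Where both genotypes had islands, the Klr regions differed little in counts at the median, and the count ratios of single regions followed island width. Of the 95 regions, 31 were wider in dKO, 43 were wider in WT and 21 had equal width, with a median log2 width ratio of 0. Over all 45322 regions in both lists these numbers were 19904, 20891 and 4527, and the median was also 0. The median log2 count ratio of the 95 regions was 0.07, against -0.07 over all such regions, with a range of -1.29 to 2.10. A ratio of at least 1.5 was reached by 9 regions in the dKO direction (9.47%, against 11.1% of all regions) and by 7 in the WT direction (7.37%, against 14.6%). All 9 of the former were wider in dKO and all 7 of the latter were wider in WT. Across the 95 regions the count ratio followed the width ratio with a Spearman correlation of 0.872, given as a description since both come from the same island borders. In the 21 regions of equal width the median log2 ratio was 0.10, with a range of -0.47 to 0.40. Counts per covered kb gave a median of 0.26, against 0.11 over all regions, and 79 of 95 regions (83.2%) were above 0, against 66.9%. On that scale 8 regions (8.42%, against 2.63%) passed 1.5 in the dKO direction and 0 in the WT direction, against 2.51% of all regions. All 8 were narrower in dKO than in WT, and 0 of them passed 1.5 in the dKO direction by counts.

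**Figure D2:**
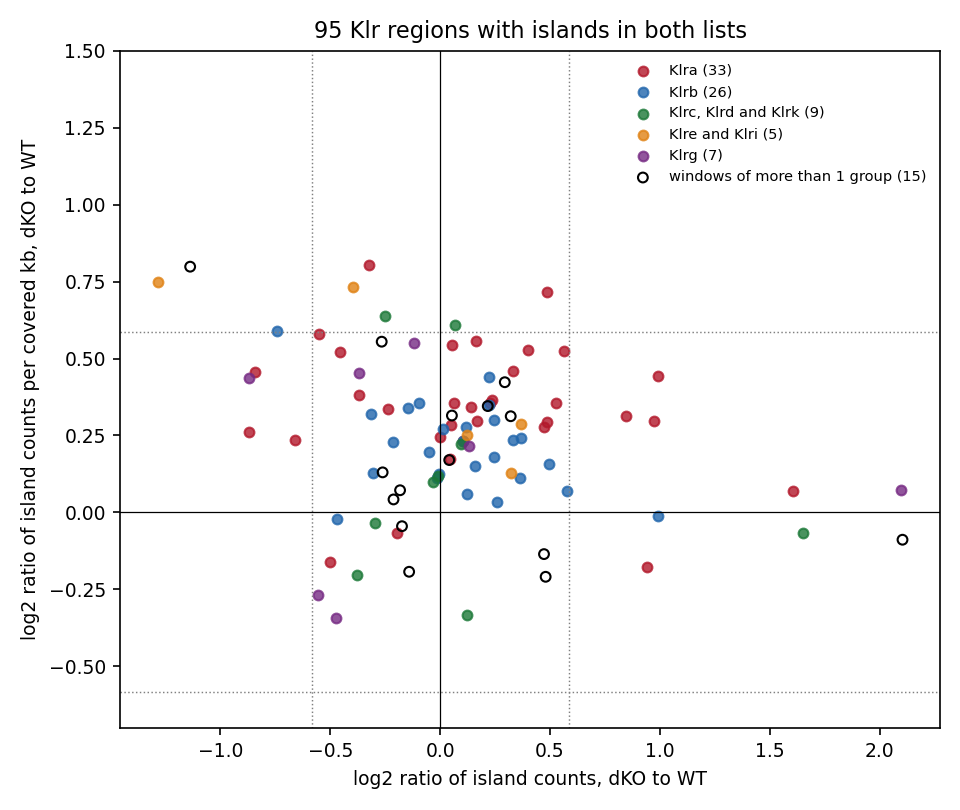
Each point is 1 of the 95 Klr regions with islands in both lists, with the log2 count ratio on the x axis and the log2 ratio of counts per covered kb on the y axis, coloured by subfamily; open circles are regions in the windows of more than 1 subfamily and dotted lines mark a ratio of 1.5. The points past 1.5 by counts on the right lie between -0.18 and 0.44 per covered kb, and no point lies below the lower dotted line.

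Among the subfamilies, Klra (Ly49) had the largest ratio of covered length, 1.54 in dKO to WT, against 0.983 to 1.12 in the others, and most of it came from 1 cluster. From Klra17 to 50 kb upstream of Klra1 (chr6:129781172-130386892, 605.7 kb), 33 WT islands in the gene windows covered 73.6 kb with 10126 counts and 67 dKO islands covered 118.0 kb with 12283 counts. The covered length was thus 1.60 times as long in dKO, against 1.09 over all islands and 1.40 over all regions under 1000 counts, and the summed log2 ratio was 0.80 (0.76 to 0.84). Of 65 regions in the cluster, 31 were in both lists, 32 in dKO only (49.2%) and 2 in WT only (3.08%). The dKO-only share was not far from the 42.8% of all regions under 1000 counts, and the WT-only share of such regions was 19.3%. Depth differed less, at 0.654 of the list mean in WT and 0.775 in dKO, or 0.25 on the log2 scale per covered kb. Of these regions 64 had under 1000 counts, and among those the summed log2 ratio was 0.85 (0.81 to 0.89), against 0.48 over all regions of that size. The direction turned with a minimum of 200 counts, where the cluster held 25 WT islands over 65.2 kb and 21 dKO islands over 60.4 kb, with 9 WT-only and 5 dKO-only regions. With the minimum scaled by list totals it held 25 islands over 65.2 kb and 39 over 90.8 kb, with 3 WT-only and 15 dKO-only regions. At 200 counts the WT-only and dKO-only shares were 30% and 16.7% of the cluster, against 23.7% and 15.7% of all regions. The balance over all regions thus turned at 200 counts as well. With the scaled minimum the shares were 7.5% and 37.5% of the cluster, against 14.2% and 25.01% of all regions. Near-identical copies limit this stretch, where 79.7% of 50-base sequences are unique in the genome and 88.8% of those within the islands, and both genotypes share that limit.

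**Figure D3:**
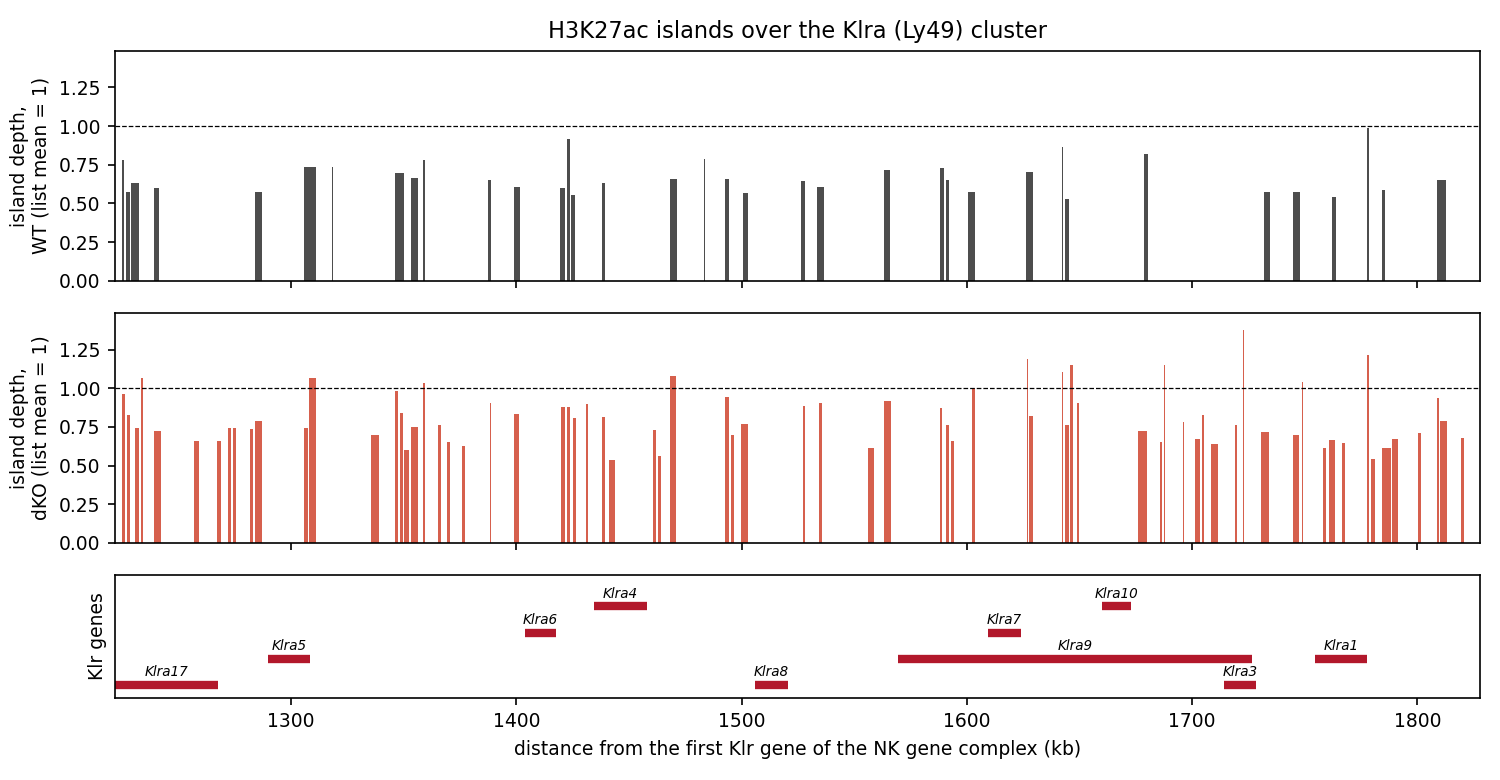
Bars are single islands over the Klra cluster in WT (top) and dKO (middle), with height as counts per kb divided by the mean of that list and x as distance in kb from the first Klr gene of the complex; gene bodies are drawn below. The WT row has 36 islands and the dKO row 73, of which 3 and 6 lie between gene windows and were not counted, and most bars in both rows stay below the dashed line at the list mean.

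Klra10, a Ly49 gene named Ly49j, had the highest window ratio of the family. Its window held 277 WT counts in 1 region over 1.6 kb and 1289 dKO counts over 13.0 kb, which gave a log2 ratio of 2.74 (2.55 to 2.93), and 8 of its 9 regions were found in dKO only. Per covered kb its ratio was -0.16, so the excess lay in the covered length, and every one of its regions was shared with the window of Klra9, whose annotated body of 157.1 kb spans Klra7 and Klra10 and overlaps Klra3 in part.
Klra1 (Ly49A), an inhibitory receptor for H2-D, had 1085 WT and 2011 dKO counts in its window, a log2 ratio of 1.41 (1.30 to 1.52) and 0.08 per covered kb. The island at its most upstream start (chr6:130336801-130337800) had 208 and 163 counts over 1 kb in each genotype, a log2 ratio of 0.17 (-0.13 to 0.46). The interval at this start includes 0, and the rest of the dKO counts lay elsewhere, including a dKO-only island of 139 counts at an internal start (chr6:130325601-130327200).
Klra17 (Ly49Q), an inhibitory receptor best known from plasmacytoid dendritic cells, had a dKO-only island of 142 counts over 1.6 kb at its start (chr6:129826401-129828000), while the nearest WT island was 16511 bp away. Its window log2 ratio was 0.61 (0.53 to 0.69). Klra5 (Ly49E) had a promoter island in both genotypes (chr6:129864801-129870400) with 864 WT and 630 dKO counts, a log2 ratio of 0.06 (-0.08 to 0.21). Klra4 and Klra8 (Ly49D and Ly49H), the activating members that pair with Tyrobp, had no promoter island, and their windows had log2 ratios of 0.997 (0.890 to 1.104) and 0.27 (0.14 to 0.40). Klra2, which lies apart from the cluster, had a window ratio of -0.42 (-0.51 to -0.34), and most of its counts came from a region at the promoter of the neighbouring gene Magohb (chr6:131240801-131245200, 2698 WT and 1329 dKO counts).

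The Klrb (NKR-P1) genes carried the deepest islands of the family, at 0.9996 times the list mean in WT and 1.13 times in dKO per covered kb, against at most 0.911 and 0.953 in the other subfamilies. Their windows held 39 regions, 26 in both lists, 12 in dKO only and 1 in WT only, with 35224 WT and 28391 dKO counts and a summed log2 ratio of 0.21 (0.19 to 0.23). The deepest region of any Klr window lay upstream of Klrb1 (chr6:128709401-128711600), with 1390 WT and 1084 dKO counts at 3.30 and 3.67 times the list means. The region with the most counts of the family lay upstream of Klrb1c and Klrb1b (chr6:128781801-128791000), with 5294 WT and 4003 dKO counts. Its depth was 2.86 times the list mean in WT and 3.47 times in dKO, and its log2 ratio was 0.12 (0.06 to 0.18) by counts and 0.28 per covered kb.
Klrb1c, which encodes the activating receptor NK1.1, had its promoter in a region of 4127 WT counts over 13.8 kb and 3708 dKO counts over 18.0 kb (chr6:128732201-128750400). The log2 ratio of 0.37 (0.30 to 0.43) went with a wider dKO island, and per covered kb it was 0.11. Islands covered 24.5% of the Klrb1c body in WT and 65.5% in dKO.
Klrb1b, an inhibitory receptor for Clec2d, had 2600 and 2148 counts at its promoter region (chr6:128758001-128780400), a log2 ratio of 0.24 (0.16 to 0.33). Klrb1f, an activating receptor for Clec2 proteins, had 3059 and 2059 counts (chr6:128985401-129000600), a log2 ratio of -0.05 (-0.13 to 0.03) and, per covered kb, 0.20, and Klrb1-ps1 had 1936 and 1362 (chr6:129059001-129070600), a log2 ratio of 0.01 (-0.09 to 0.11). The last intervals include 0, while that of Klrb1b does not.
Klrb1 had no WT island within 1 kb of its start, where a dKO-only island of 87 counts over 1 kb (chr6:128671401-128672400) lay inside the gene, 664 bp from the start. Klrb1a had no region in its window at all, and the nearest island to its start was 108049 bp away in WT and 25290 bp away in dKO.

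**Figure D4:**
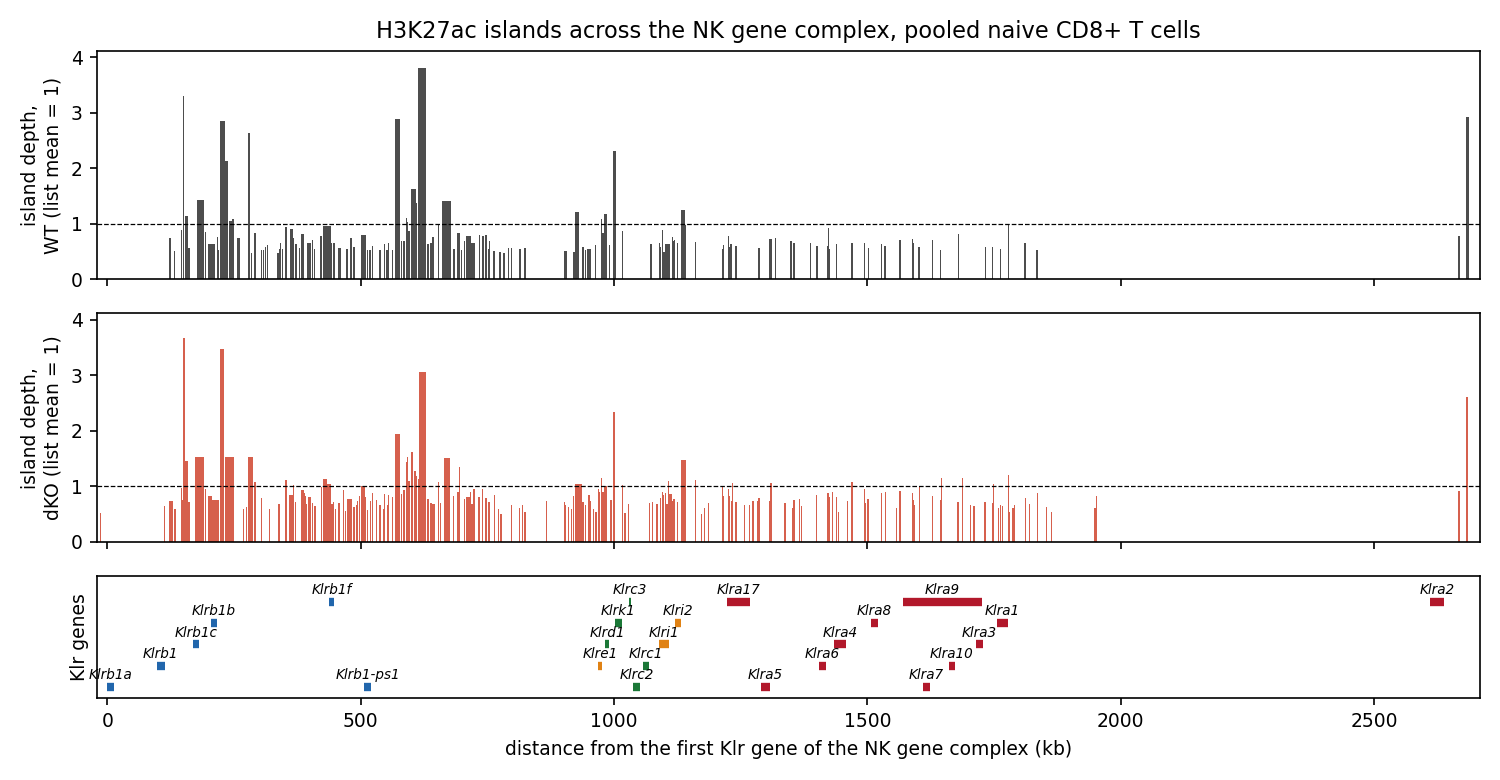
Bars are single islands across the NK gene complex in WT (top) and dKO (middle). Height is counts per kb divided by the mean of that list, and x is distance in kb from the 3' end of Klrb1a, its lowest coordinate. Klr gene bodies are drawn below, coloured as Klra red, Klrb blue, Klrc, Klrd and Klrk green, Klre and Klri orange. The tallest islands among the Klr windows lie upstream of Klrb1 and of Klrb1c and Klrb1b, the tall islands between the Klrb and Klre genes lie outside the Klr windows, and the stretch from Klra17 to Klra1 holds shallow islands in both genotypes.

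The NKG2 and CD94 genes had a smaller summed ratio than Klra. The windows of Klrk1, Klrd1, Klrc1, Klrc2 and Klrc3 held 30 regions, 24 in both lists, 4 in dKO only and 2 in WT only, and the summed log2 ratio was 0.06 (0.03 to 0.10). Klrk1 (NKG2D), which signals through Hcst and Tyrobp, had no promoter island in either genotype, the nearest being 1719 bp from its start in both. A deep region over its 3' part (chr6:129556201-129563000) had 3319 WT and 1885 dKO counts at 2.32 and 2.26 times the list means, a log2 ratio of -0.30 (-0.38 to -0.22) and -0.03 per covered kb. The Klrk1 window as a whole had a ratio of 0.03 (-0.04 to 0.10), including 3 dKO-only regions.
Klrd1, the CD94 partner chain, had 1573 WT and 844 dKO counts at its promoter region (chr6:129539401-129545800), a log2 ratio of -0.38 (-0.50 to -0.26) and -0.20 per covered kb. A WT-only island of 128 counts at an internal start (chr6:129546401-129547200) pointed the same way. Over the whole Klrd1 window, however, the log2 ratio was 0.14 (0.09 to 0.20). That window includes a region at the promoter of the neighbouring gene Gabarapl1 (chr6:129482201-129495600). The Gabarapl1 region had 1938 WT and 1886 dKO counts, a log2 ratio of 0.48 (0.39 to 0.57), so the window value is not that of Klrd1 alone.
Klrc1 (NKG2A), the inhibitory partner of Klrd1, had a small promoter island of 150 WT and 114 dKO counts (chr6:129628201-129629600), with a log2 ratio of 0.12 (-0.23 to 0.47) and, per covered kb, -0.33. The interval is wide at this depth, and the island was wider in dKO (1.2 kb) than in WT (0.8 kb). Upstream of it, chr6:129641401-129645000 was covered over 1 kb in WT and 3.6 kb in dKO, with 150 WT and 329 dKO counts, a log2 ratio of 1.65 by counts and -0.07 per covered kb. The windows of Klrc1 and of Klrc2 (NKG2C), which share most of their regions, had ratios of -0.02 (-0.08 to 0.05) and 0.00 (-0.07 to 0.07).

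Klre1, Klri1 and Klri2 encode receptors in which Klre1 pairs with the inhibitory Klri1 or the activating Klri2. Together their windows held 27 regions, 20 of them in both lists with log2 ratios from -1.29 to 2.10, and a summed log2 ratio of 0.26 (0.22 to 0.29). That sum includes the region at the Gabarapl1 promoter (1938 WT and 1886 dKO counts), which lies in the Klre1 window. At the Klre1 promoter, whose sequence is given above, the island was 0.4 kb wide in WT and 2 kb in dKO (chr6:129526801-129528800), with 85 and 255 counts and a log2 ratio of 2.10 (1.75 to 2.46). Its depth was 1.01 times the list mean in WT and 0.949 in dKO, -0.09 on the log2 scale per covered kb, so the genotypes differed in width and little in depth there. Further upstream of Klre1, chr6:129478201-129481200 had 311 WT counts over 3 kb and 89 dKO counts over 0.8 kb, a log2 ratio of -1.29 by counts and 0.75 per covered kb.
Klri1 had 1598 WT and 1157 dKO counts at its promoter (chr6:129660201-129673000), a log2 ratio of 0.05 (-0.06 to 0.16). An intronic region of the same gene (chr6:129656201-129659000) was covered over 2.8 kb in WT and 0.8 kb in dKO, with 287 and 91 counts, a log2 ratio of -1.14 by counts and 0.80 per covered kb. Klri2, with its start 899 bp away, had a region of 2227 WT and 2008 dKO counts (chr6:129691401-129701600), a log2 ratio of 0.37 (0.28 to 0.46). That region was also deeper in dKO, at 1.47 against 1.20 times the list mean, or 0.29 per covered kb, and the Klri2 window ratio was 0.61 (0.53 to 0.68).

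Klrg1, an inhibitory receptor for cadherins that marks differentiated effector T cells, had no promoter island, the nearest being 5101 bp from its start in WT and 3701 bp in dKO. Its window had 5281 WT and 2857 dKO counts, a log2 ratio of -0.37 (-0.43 to -0.30), but 0.21 per covered kb. Of its regions, chr6:122257201-122262200, at the promoter of M6pr, had 2129 WT and 1071 dKO counts over 4 kb in each. The log2 ratio there was -0.47 (-0.58 to -0.37) and -0.34 per covered kb. The window also holds the WT-only region at the Phc1 promoter (374 counts), so the window value is not that of Klrg1 alone. Nearer to Klrg1, chr6:122238001-122246600 had 1100 WT counts over 8.6 kb and 420 dKO counts over 3.8 kb, a log2 ratio of -0.87 by counts and 0.44 per covered kb.
Klrg2 had a promoter region (chr6:38585201-38591800) of 637 WT and 302 dKO counts, a log2 ratio of -0.56 (-0.75 to -0.36) and -0.27 per covered kb, with the nearest dKO island 1162 bp from the start. A region at its 3' end and beyond (chr6:38571001-38580800) had 301 WT counts over 2.2 kb and 899 dKO counts over 9.8 kb. Its log2 ratio was 2.10 (1.91 to 2.29) by counts and 0.07 per covered kb. The WT island of that region lay outside the gene body, and the dKO island lay partly in it, so this ratio is not one of the body. Islands covered 19.3% of the Klrg2 body in WT and 39.1% in dKO.

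Summed over gene windows, 10 of the 26 Klr genes with counts in both lists passed a ratio of 1.5 in the dKO direction (38.5%, against 7.05% of protein-coding genes) and 0 in the WT direction, against 9.27%. The median over the 26 genes was 0.32, against -0.02 over all genes. Of the 10 genes, 8 were Klra genes, whose windows overlap and share regions, and the other 2 were Klrg2 and Klri2. The shares over all genes are not matched for region size. In the Klra cluster 64 of 65 regions had under 1000 counts, and all regions of that size had a summed log2 ratio of 0.48. Klr regions from 1000 counts had a summed log2 ratio of 0.09 (0.07 to 0.10). The same sum over all regions of that size was not computed, so this value has no background beside it. Whether region size accounts for the gene shares was not tested. Per covered kb, 0 of the 26 genes passed 1.5 in either direction, with values from -0.36 at Klrk1 to 0.48 at Klra7. The share per covered kb was not computed over all genes, so it is not known whether 0 is usual. Among all single regions in both lists, 2.63% passed per covered kb in the dKO direction and 2.51% in the WT direction.

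**Figure D5:**
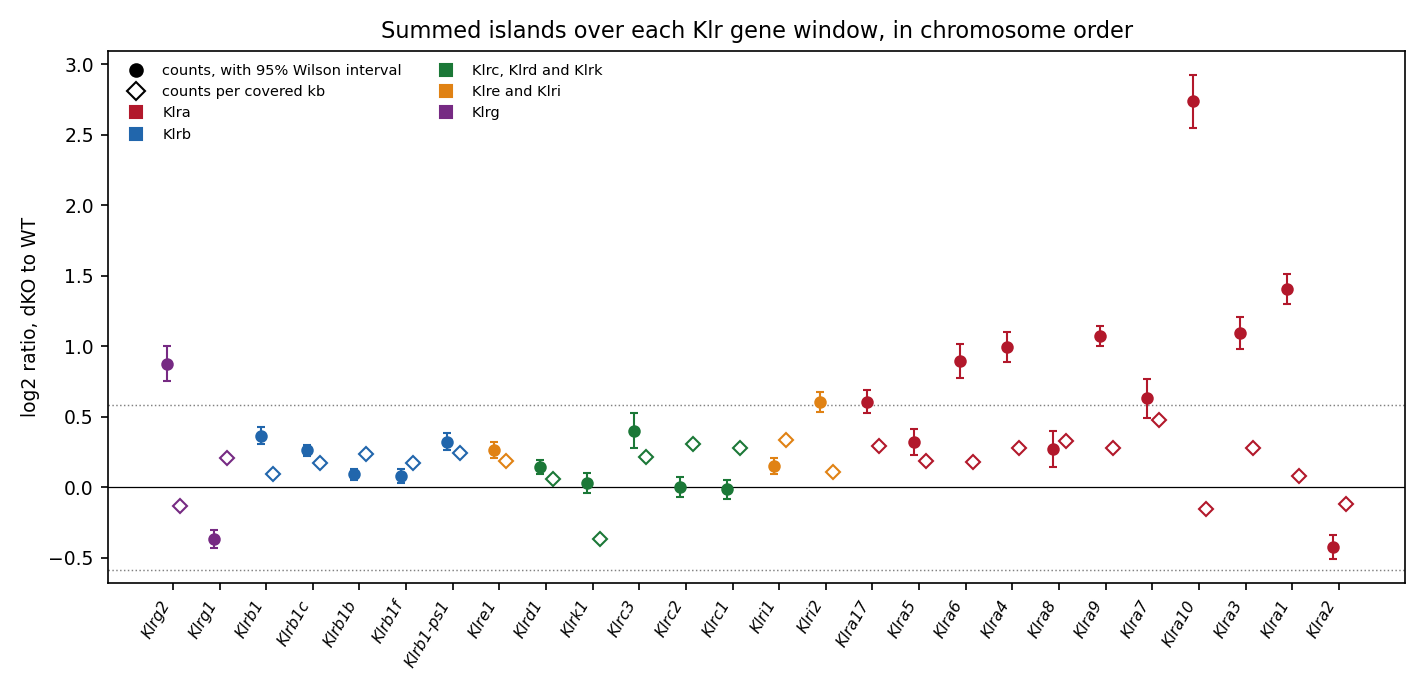
For each Klr gene with counts in both lists, in chromosome order, filled circles give the log2 ratio of dKO to WT counts summed over its window with the 95% Wilson interval (counting error only), and open diamonds the ratio per covered kb. Dotted lines mark a ratio of 1.5, which 10 circles and no diamond exceed, and Klra10 stands highest at 2.74.

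Few of the genes that Klr receptors signal through, or that encode their ligands, passed a ratio of 1.5. All 10 signalling partners found in the annotation, among them Hcst, Tyrobp, Ptpn6 and Zap70, had promoter islands in both genotypes. Their median log2 ratio was 0.10, and 0 of 10 windows passed 1.5 either way. Over all protein-coding genes, 7.05% passed in the dKO direction and 9.27% in the WT direction. Of the 13 ligand genes found, 7 had a promoter island in WT and 9 in dKO. Of 10 with counts in both lists, 1 passed 1.5 in the dKO direction (10%, near the share of all genes) and 0 in the other. That gene was H2-K1, a classical MHC class I gene, with 14889 WT and 22778 dKO counts and a log2 ratio of 1.13 (1.103 to 1.163). It had an island at its promoter in dKO only. The share of unique sequence was computed for the Klr stretches only, so that limit is not known at H2-K1. H2-T23, which encodes the Qa-1 ligand of Klrd1 dimers, had a ratio of 0.07 (0.03 to 0.11). The 24 other protein-coding genes located within the NK gene complex, 12 of them Clec genes, had promoter islands at 11 in WT and 13 in dKO. Of 20 with counts in both lists, 3 passed 1.5 in the dKO direction (15%, against 7.05% of protein-coding genes) and 0 in the other, against 9.27%. Clec7a and D630042F21Rik, 2 of the 3, had windows with the same 3 regions and so the same counts. The median over the 20 was 0.09, and their median per covered kb of 0.26 was close to the 0.20 of the Klr genes.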

How the data were processed

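Naive CD8+ T cells were profiled by H3K27ac ChIP-seq (4 WT and 3 dKO samples, 1 input per genotype). The submitters' processing notes name FastQC, Bowtie2 2.2.5, SICER 1.1 and mm9. The authors used reads that mapped to 1 place at a MAPQ over 10, pooled replicates by genotype and ran island calling with a window of 200 bp, a gap of 400 bp and an FDR below 0.01. The deposited values are whole-number read counts per island, scaled neither for depth nor width. Duplicate removal, use of the input in calling and the read length are not given in the sources used here. A stretch without an island has no count, an island's count follows its width, and list totals, not sequencing depth, were used for scaling. Reads carry no molecular identifiers, so intervals cover counting error only.

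WT and dKO islands overlapping by 1 bp or more were merged with Python 3.11.15 and pandas 2.3.3, and counts and widths were summed per region. Coordinates are 1-based. Gene models came from GENCODE vM1 and sequence from NCBIM37, the same assembly as mm9. A promoter was 1 kb either side of any annotated start. Log2 ratios used list totals, and a ratio of 1.5 was called. Replicates were pooled, so no test was run. Merging and ratios were tested on simulated islands. Values were given for every Klr gene with a promoter island, for the main NK receptors, for the 3 highest and 3 lowest ratios among regions of at least 200 counts, and for the 3 most counted islands of each genotype alone. The members, lists and names were chosen with earlier results of these data known, and further genes, regions and neighbours were named after their values were seen. Of the listed genes, Syk, Raet1e, Ulbp1, Clec2f and Adgre1 matched no protein-coding entry and were not analysed here. Alternatives covered scaling, windows, joining distance, count minimum and unique sequence.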

Additional observations from a re-analysis of the deposited data

How the results depend on the processing

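No paired analysis was possible because the replicates were pooled before islands were called and the lists carry no replicate numbers; leaving out single replicates could not be run for the same reason. The summed log2 ratio (0.25) stayed above 0 under every alternative run: 0.32 with scaling by regions in both lists and 0.32 with the median ratio set to 0, 0.12 per covered kb, 0.27 for gene bodies, 0.28 to 10 kb upstream, 0.28 for the NK gene complex alone, 0.22 with islands within 1 kb joined, and 0.074 with islands of at least 200 counts. The median over regions (0.07) was 0.26 per covered kb and 0.34 with regions of 1 list included at 10 pseudocounts, and stayed from 0.06 to 0.14 otherwise, including 0.06 where at least 90% of 50-base sequences are unique. Per covered kb, 0 regions were past 1.5 in the WT direction in place of 7. By list, gene bodies held 38 regions in both, 2 in WT only and 21 in dKO only, and bodies to 10 kb upstream held 54, 3 and 31. Joining left 3 in WT only and 33 in dKO only (2.88% and 31.7%, against 12.3% and 26.8% of all regions). Islands of at least 200 counts left 61 in both, 19 in WT only and 8 in dKO only, with 3 past 1.5 in the WT direction. The WT-only and dKO-only shares were 21.6% and 9.09%, against 23.7% and 15.7% of all regions. Gene bodies had 4 regions past 1.5 in the dKO and 3 in the WT direction, and a ratio of 2 left 4 and 2. With alternatives chosen after seeing the data, the sum was 0.28 without regions that hold another gene's promoter, and 0.20 with the count minimum scaled by list totals, which left 28 dKO-only regions. Counts of marked promoters stayed between 9 and 13. Of the 21 single regions followed, 7 turned in sign per covered kb: 0.44 upstream of Klrg1, 0.75 upstream of Klre1, -0.089 at the Klre1 promoter, -0.067 upstream of Klrc1, 0.80 in the Klri1 intron, 0.20 at the Klrb1f promoter and -0.33 at the Klrc1 promoter. The Klrb1f value was also above 0 under both other scalings. Without replicates, differences of this size cannot be set against biological spread.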

Other observations

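Some neighbours of the Klr genes in the NK gene complex had values of their own. Gm156, which lies between Klri2 and Klra17, had 993 WT and 1523 dKO counts in its window, a log2 ratio of 1.14, and a promoter island in dKO only. Some of its regions are also in the Klri2 window. Clec7a (Dectin-1, a receptor for fungal glucans) had 566 and 713 counts, a ratio of 0.85, in the same regions as its neighbour D630042F21Rik. Cd69, an early activation marker and retention receptor of lymphocytes, had 9646 and 5468 counts, a ratio of -0.30, and 0.08 per covered kb. Clec2d, the ligand of Klrb1b, had 7557 and 4060 counts, a ratio of -0.38, and -0.34 per covered kb. The Clec2d window was thus lower in dKO by both measures, and these genes were named after their values were seen.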
